A study of Mus musculus with 6 samples.

Results

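The 10 genes described here encode RNA-binding proteins with roles in muscle or in the quiescence of stem cells. They are Rbpms, Rbpms2, Zfp36, Zfp36l1, Zfp36l2, Msi2, Elavl1, Stau1, Celf1 and Fxr1, out of 31053 genes counted, of which 11633 passed the expression minimum, all 10 among them. Rbpms2 was chosen for its rise in the comparison made here, so its values are a description and carry no test. The other 9 were chosen for their roles.

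RNA was sequenced from quiescent muscle stem cells (qMuSCs) sorted by FACS for GFP from hindlimb muscles of mice aged 3 to 4 months, with a library for each mouse. The 3 WT mice (c124, c129 and c130) were Pax7nGFP/+;Pax7+/+;Dio2Fl/Fl and the 3 cD2KO mice (fl125, fl126 and fl128) were Pax7nGFP/+;Pax7-CreERT2/+;Dio2Fl/Fl. All 6 mice received tamoxifen and carried the GFP reporter and floxed Dio2, the gene of the deiodinase D2 that makes active thyroid hormone. The groups therefore also differed in the Cre allele, which acts only in cells that express Pax7.

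Proteins of this kind decide how long an mRNA lasts, how it is spliced and whether it is translated. Zfp36 family proteins bind AU-rich elements in the 3′ ends of mRNAs and recruit the deadenylases that shorten the poly(A) tail, while Elavl1 binds similar elements and stabilizes its mRNAs. In quiescent MuSCs, Zfp36 and Stau1 are known to hold back Myod1, the mRNA of a myogenic regulator, the former through decay and the latter through translation. Rbpms and Rbpms2 are close relatives with an RNA recognition motif, and both are known from smooth muscle and heart.

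Windows of 29 bases from annotated 3′ ends are shown for Zfp36, for Myod1, and for every mRNA of a list of 24 known targets that passed the threshold and held the AU-rich core TATTTAT. Capitals mark the core, also where a window cuts one. The regions are from GENCODE M21 on mm10, the strand is given by + or -, and each sequence is written 5′ to 3′ along the mRNA.
Zfp36, chr7:28376966-28376994 (-): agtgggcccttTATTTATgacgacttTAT
Myod1, chr7:46378968-46378996 (+): cccttgggctaTATTTATctcccaggcat
Tnf, chr17:35199678-35199706 (-): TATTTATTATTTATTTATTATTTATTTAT
Cxcl1, chr5:90892603-90892631 (+): agggtccTATTTATTTATgTATTTATTTA
Cxcl2, chr5:90905332-90905360 (+): ATTTATctatgTATTTATTTATTTATtaa
Fos, chr12:85477103-85477131 (+): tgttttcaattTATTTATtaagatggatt
Dusp1, chr17:26506159-26506187 (-): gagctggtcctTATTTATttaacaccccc

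Tnf held 8 copies of the core in a 3′ end of 764 bases, Cxcl2 held 7, Cxcl1 held 6, Dusp1 held 3 and Fos held 2. Of the 24 listed targets 13 held at least 1 copy, as did 26.2% of 21007 genes with such a region. The list held known targets of proteins that include binders of AU-rich elements, so these shares are a description and not a test. Among the 10 RNA-binding protein genes 6 held it, namely Elavl1 with 8 copies, Zfp36, Zfp36l1 and Zfp36l2 with 3 each, and Celf1 and Rbpms2 with 1 each. For each gene 1 annotated transcript was searched, so these counts depend on that choice. The searched regions of Rbpms, Fxr1, Msi2 and Stau1, which held none, were 112, 255, 803 and 1071 bases long, and that of the listed target Vegfa 27 bases. The share of genes with a core depended on length. Among genes with a 3′ end as long as that of Zfp36 (774 bases, within 0.8 to 1.25 times) 19.9% held one, against 62.2% at the length of Elavl1 (4218 bases). A match is a description of the letters and not a bound site.

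The promoters of Rbpms2 and Zfp36 follow, each as the 250 bases before the start site that RefSeq gives on GRCm38.p6. Both windows lie inside the gene spans of GENCODE M21, 65629648 to 65660528 for Rbpms2 and 28376784 to 28380253 for Zfp36. That annotation starts both genes farther upstream, and its exons cover the whole span of Zfp36. The letters are thus upstream sequence by RefSeq only. Rbpms2 is shown as the gene whose level separated the groups upward, and Zfp36 was picked after its match had been seen. Capitals mark a CArG box, the site of serum response factor.
Rbpms2, chr9:65630332-65630581 (+): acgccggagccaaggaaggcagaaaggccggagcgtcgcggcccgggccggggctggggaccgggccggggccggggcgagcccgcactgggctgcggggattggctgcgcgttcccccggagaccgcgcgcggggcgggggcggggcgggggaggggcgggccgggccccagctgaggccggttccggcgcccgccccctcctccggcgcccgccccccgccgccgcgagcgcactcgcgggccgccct
Zfp36, chr7:28379229-28379478 (-): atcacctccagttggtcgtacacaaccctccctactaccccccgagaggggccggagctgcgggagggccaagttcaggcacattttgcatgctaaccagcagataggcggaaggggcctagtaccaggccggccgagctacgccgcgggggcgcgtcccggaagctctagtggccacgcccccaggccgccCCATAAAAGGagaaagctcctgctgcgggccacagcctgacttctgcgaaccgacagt

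Promoters of 300 bases, from 250 before to 50 after the start, were found for 8 of the 10 genes. They were searched on both strands for 7 motifs, and no correction was made for that number. Zfp36 held 1 CArG box, CCATAAAAGG, 49 to 58 bases before its start, as 1.81% of 27025 genes did. Fos, looked at for comparison, held none in this window, nor did any of the 15 dissociation genes, 11 mural genes and 10 MuSC genes with a promoter sequence. Only the strict form of the box, CC, a run of A or T and GG, was searched, and only in these 300 bases. Boxes farther away or with other letters would be missed, so no match here does not mean no site. Msi2 held TGACGTCA, the cAMP response element, as 2.03% did. Zfp36l1 held TATAA, which 28% of genes held. The E-box CANNTG was in the promoters of Rbpms2, Zfp36, Msi2 and Stau1 and in 75% of genes. None of the 8 held AGGTCA, the half-site of thyroid hormone receptors (18.1% of genes), CATTCC (16.6%) or a Mef2 site (0.636%). The promoter of Rbpms2 was 83.3% G and C, where the median of 32851 promoters was 52.7% and 0.292% were as high or higher.

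The libraries held 2184073 to 3897787 counts, so that 3 counts, taken as the level not told apart from 0, stood for 0.768 to 1.36 CPM (counts scaled to a library of 1e6 with TMM factors). Dio2 had 21, 5 and 10 counts in c124, c129 and c130 and 15, 5 and 1 in fl125, fl126 and fl128, with overlapping groups and a mean below the expression minimum. Counts per gene do not separate the floxed exon, so Dio2 does not check the labels, and the highest level in CPM of the 6 was in fl125, a library labelled cD2KO. Pax7 was at 212 to 687 CPM, and some genes of smooth muscle contraction were higher in every mouse, with Acta2 at 1563 to 7893 CPM and Myh11 at 1989 to 6092 CPM, while others such as Tagln (107 to 245 CPM) were lower than Pax7. Marker genes were called at an unadjusted p under 0.05 in edgeR, where 5.34% of all genes tested were higher in cD2KO and 6.62% lower. Of 17 markers of mural cells (smooth muscle cells and pericytes), 9 were higher in cD2KO and 0 lower. Their summed level was 7989 to 12653 CPM in WT and 16112 to 23450 CPM in cD2KO. Of 15 MuSC markers, 3 (Itga7, Cdh15 and Myf5) were higher and 2 (Cxcr4 and Sdc3) lower. Of 10 endothelial markers tested 7 were lower, and the endothelial Erg and Tie1 were at or near 0 in several mice. Of 10 markers of fibroadipogenic progenitors 4 (Smoc2, Col1a2, Gsn and Lum) were lower and 0 higher. The sums of these 10 overlapped, at 4535 to 7526 CPM in WT and 2828 to 5796 CPM in cD2KO. Of 14 leukocyte markers 3 were called lower, but all 14 had log2 fold changes between -2.44 and -1.29. For 12 of them every cD2KO mouse was below every WT mouse, where 18.1% of all genes tested had groups that did not overlap. Their summed levels were 4517 to 8527 CPM in WT, 232 CPM in fl125 and 2548 and 2962 CPM in the other cD2KO mice. Of the 14, 13 were called lower without fl125, 1 without c129, c130 or fl126 and 0 without fl128. Of 17 immediate early and stress genes that dissociation of tissue induces, 11 were lower, and their sum stood at 15119 CPM in c129 and between 5177 and 8680 CPM in the other 5 mice. Without c129, 2 of those 17 were lower, without fl125 5 and without fl128 4. In bulk RNA, fewer cells of a type and less RNA per cell cannot be told apart.

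In the bulk RNA of sorted WT cells, Rbpms2 had the highest mean level per length of the 10 genes, 107 ± 19.8 CPM per kb of exon (SD, n = 3). Zfp36l1 followed at 92.5 ± 3.98 and Zfp36 at 67.9 ± 49.8 CPM per kb. The ranges of these 3 genes overlapped from neighbour to neighbour. Below them came Fxr1 at 20.7 ± 3.28, Rbpms at 17.4 ± 1.89 and Celf1 at 15.1 ± 2.32 CPM per kb, again with overlapping neighbours. Stau1 (8.67 ± 0.608 CPM per kb) lay apart from the genes on both sides of it in that order. Msi2 (5.43 ± 1.25) and Elavl1 (4.22 ± 0.673 CPM per kb) overlapped, and Zfp36l2 was lowest at 2.27 ± 0.251 CPM per kb. Whether reads cover whole mRNAs or mainly their ends is not given in the sources used here, and the order per length depends on it. The order also depends on the lengths used, which were all annotated exons of a gene merged. For Zfp36 they came to 3470 bases, its whole span in GENCODE M21, so a shorter mRNA would give it a higher level per length. Exons of Zfp36, Zfp36l1, Zfp36l2, Elavl1 and Fxr1 overlap a gene annotated on the opposite strand, so their reads are uncertain there if strand was not used in counting.

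**Figure D1:**
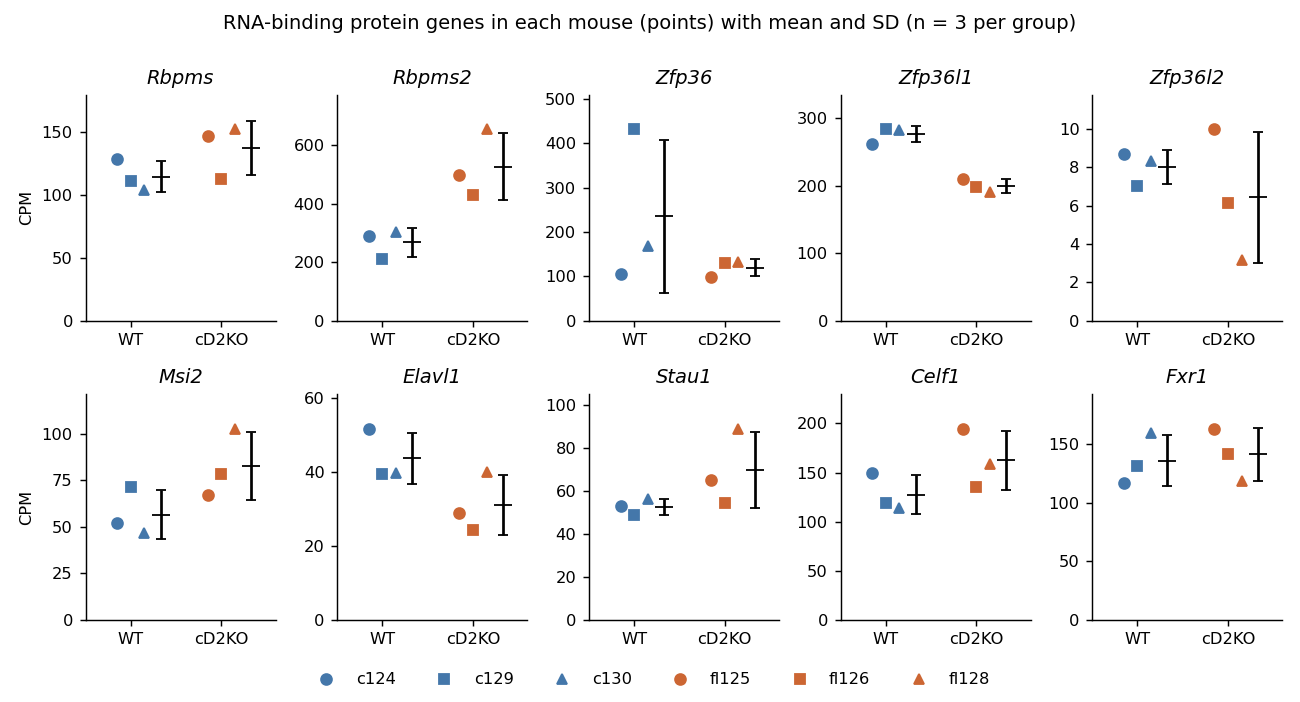
Level of each of the 10 genes in CPM (vertical axis, from 0, a scale for each gene) in the 3 WT (blue) and 3 cD2KO (orange) mice, with a symbol for each mouse and bars for the mean ± SD. Rbpms2 separated the groups upward and Zfp36l1 downward, c129 stood far above the other mice for Zfp36, and the groups overlapped for the other 7 genes.

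The comparison of cD2KO with WT was of bulk RNA from GFP-sorted cells of mice with and without the Cre allele. It was meant to show the loss of D2, which the Dio2 counts do not check. Across all genes, 5.34% rose and 6.62% fell in cD2KO at the line used for calls here, an unadjusted p of 0.05 in edgeR's quasi-likelihood test, and 0.774% passed an adjusted p of 0.1. Of the 9 genes chosen by role, Msi2 was higher and Zfp36l1 lower, and the other 7 did not pass. With 1 of 9 in each direction, the counts cannot be told apart from these shares. The lowest adjusted p among these 9 was 0.329, so 0 of them passed an adjusted p of 0.1 with edgeR, while 2 passed the unadjusted line with edgeR, 3 with DESeq2 and 2 with limma voom. Their median log2 fold change was 0.05, and that of all genes tested was -0.02. The groups did not overlap for Zfp36l1 among the 9, and 18.1% of all genes tested had groups that did not overlap.

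**Figure D2:**
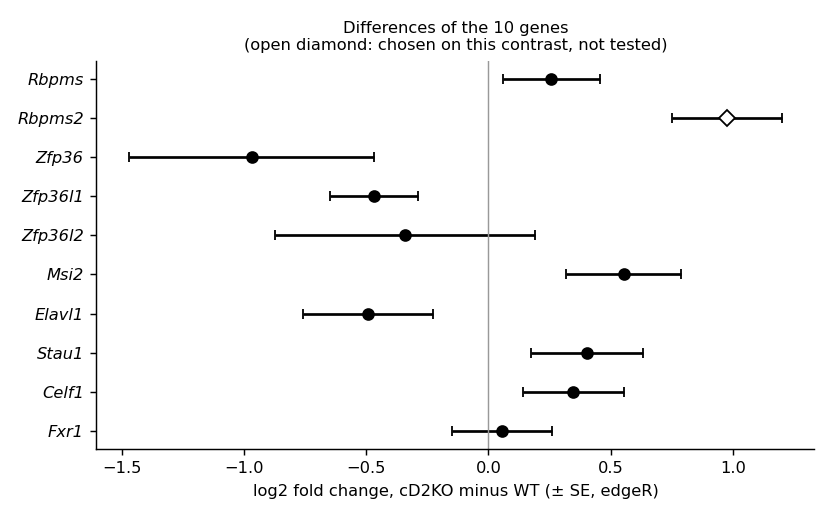
Log2 fold change of each gene, cD2KO minus WT, with its SE calculated from the F of edgeR's test (horizontal axis). Filled circles are the 9 genes chosen by role and the open diamond is Rbpms2, chosen on this contrast and not tested. Rbpms2 lies at 0.98 and Zfp36 at -0.97 with a wider error, and the other 8 lie between -0.49 and 0.55.

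Rbpms2 (ENSMUSG00000032387) spans 65629648 to 65660528 on chromosome 9 of mm10 (plus strand), where the annotation holds no other gene. It was at 289, 211 and 304 CPM in WT (c124, c129, c130) and at 497, 429 and 654 CPM in cD2KO (fl125, fl126, fl128). Every cD2KO mouse was above every WT mouse, with fl128 the highest. The level in cD2KO was 1.97-fold that in WT, a log2 fold change of 0.98 with an SE of 0.23, and it lay between 0.79 and 1.11 when any 1 mouse was left out. Rbpms2 was chosen for this rise, so neither the SE nor that range is a test of it. Rbpms (ENSMUSG00000031586, chromosome 8, 33782643 to 33929863, minus strand), its relative and a splicing regulator of smooth muscle, was at 128, 111 and 104 CPM in WT and 146, 113 and 152 CPM in cD2KO. The groups overlapped, and the log2 fold change of 0.26 (SE 0.20) did not pass (edgeR, adjusted p = 0.669). The coding sequences of the pair were 73.3% identical where aligned and the longest run shared by their mRNAs was 20 bases.

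The genes whose log2 CPM across the 6 mice was most like that of Rbpms2, among 9151 genes, were Mylk, Csrp2, Smyd4, Sorbs2 and Cops8, with Pearson's r from 0.9951 down to 0.9874. The points share the groups and the libraries, so r is a description of them. Without c129 and fl128, the mice farthest from the median, the values were 0.981, 0.980, 0.963, 0.970 and 0.954, and Spearman's rho over all 6 mice was 0.886 to 1. Mylk, the myosin light chain kinase of smooth muscle, is on the mural list, and Csrp2 is a LIM protein also known from smooth muscle. Mylk was at 2036, 1368 and 1932 CPM in WT and at 3276, 3048 and 4517 CPM in cD2KO. Its level was 6.36 to 7.10 times that of Rbpms2 in every mouse of both groups, and that of Myh11, the smooth muscle myosin, was 6.21 to 9.42 times. For MuSC genes, the ratio of Itga7, an integrin, to Rbpms2 ran from 0.562 to 0.818, a spread much like that of Myh11, and the ratio of Pax7 from 0.480 in fl128 to 1.42 in c130. These ratios were picked with their values in view. The summed mural markers separated the groups in the same direction as Rbpms2 (two-sided exact permutation test, p = 0.1, the smallest that 3 against 3 allow), while the 15 summed MuSC markers overlapped, at 1855 to 2403 CPM in WT and 2088 to 3310 CPM in cD2KO (exact permutation test, p = 0.4). The mural markers that passed were genes of the smooth muscle cytoskeleton and contraction and Mcam. The other 8 did not pass, and their groups overlapped. Of these, Rgs5, Pdgfrb, Kcnj8 and Abcc9 had log2 fold changes of 0.00, -0.06, -0.36 and -0.23. Cspg4, Higd1b and Ndufa4l2 had 0.25, 0.34 and 0.43, and Myocd, a smooth muscle gene, had -0.06. Among the 15 MuSC markers 3 separated the groups upward and 2 (Cxcr4 and Sdc3) downward, where 18.1% of all genes tested had groups that did not overlap. Itga7 was at 152 to 236 CPM in WT and 312 to 367 CPM in cD2KO, 1.64-fold. The others upward were Cdh15 (1.42-fold) and Fgfr4 (1.31-fold), the latter without passing the unadjusted line. None of the 17 mural markers had 0 counts in any mouse, but Myocd had 2 in c130, under the 3 counts taken as not told apart from 0. The part of RNA from mural cells or from MuSCs in the level of Rbpms2 was not tested.

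**Figure D3:**
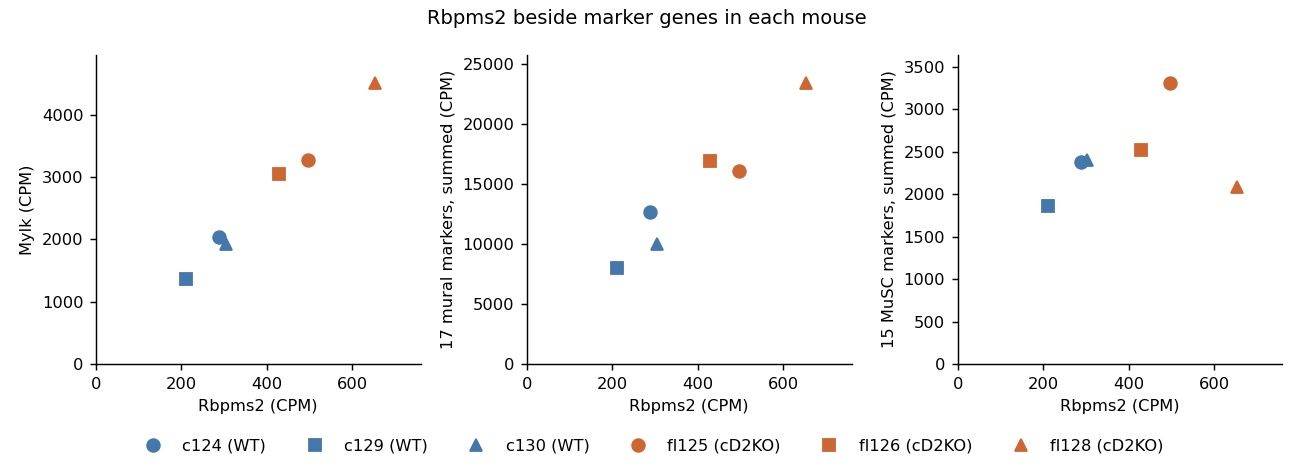
Level of Rbpms2 in CPM (horizontal axes) beside that of Mylk, the sum of 17 mural markers and the sum of 15 MuSC markers in CPM (vertical axes, from 0), with a symbol for each mouse (blue WT, orange cD2KO). Mylk, picked with its values in view, stood at 6.36 to 7.10 times the level of Rbpms2 in all 6 mice. The MuSC markers summed to 1855 to 2403 CPM in WT. In fl125 and fl126 their sum was above that range, at 3310 and 2515 CPM, and in fl128, highest in Rbpms2, it was within it at 2088 CPM.

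Of the Zfp36 family, which directs AU-rich mRNAs to decay, Zfp36l1 was lower in cD2KO, whereas Zfp36 and Zfp36l2 did not pass the test. Zfp36 (ENSMUSG00000044786, chromosome 7, 28376784 to 28380253, minus strand), also called tristetraprolin, was at 106, 432 and 169 CPM in c124, c129 and c130 and at 98.3, 130 and 132 CPM in fl125, fl126 and fl128. The WT mouse c129 was far above the rest, and c124 lay within the cD2KO range. The log2 fold change was -0.97 (SE 0.50, edgeR, adjusted p = 0.514), and it was -0.17 without c129, the mouse with the highest sums of stress and leukocyte markers. Zfp36 passed the unadjusted line with DESeq2, with no expression minimum and without c124. Fos, an immediate early gene, was at 2.18 to 2.99 times the level of Zfp36 in every mouse, while Lyz2, a leukocyte gene, ran from 0.862 times in fl125 to 6.73 times in c124, both ratios chosen after their values were seen. The part of dissociation stress and leukocytes in the level of Zfp36 was not tested.

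Zfp36l1 (ENSMUSG00000021127, chromosome 12, 80107754 to 80113013, minus strand), a second decay factor of AU-rich mRNAs, was at 263, 284 and 283 CPM in WT and 211, 198 and 191 CPM in cD2KO. All 3 cD2KO mice lay below all 3 WT mice, with means ± SD of 277 ± 11.9 and 199.8 ± 9.95 CPM (n = 3 each). Its level fell by 0.47 on the log2 scale (SE 0.18), to 0.723 of WT (edgeR, adjusted p = 0.329). The fold change stayed between -0.51 and -0.43 when 1 mouse was left out, but the unadjusted line was missed without c130, fl126 or fl128 and with no expression minimum. Summed endothelial markers separated the groups in the same direction, at 482 to 622 CPM in WT and 302 to 393 CPM in cD2KO, as did the leukocyte markers, and their part in this difference was not tested.

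Zfp36l2 (ENSMUSG00000045817, chromosome 17, 84183931 to 84187947, minus strand), the third of the family, had 10 to 34 counts per mouse. It was at 8.71, 7.01 and 8.31 CPM in WT and 9.96, 6.16 and 3.14 CPM in cD2KO. The groups overlapped, with fl125 the highest and fl128 the lowest of the 6 mice, and the log2 fold change of -0.34 (SE 0.53) did not pass (edgeR, adjusted p = 0.866). Without fl128 the log2 fold change was -0.005.

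Among the genes that act on translation, stability and splicing, Msi2 (ENSMUSG00000069769, chromosome 11, 88339382 to 88718513, minus strand), a translational regulator known from stem cells, was at 52.0, 71.2 and 46.4 CPM in WT and 67.0, 78.3 and 103 CPM in cD2KO. The groups overlapped through c129, which lay above fl125. The log2 fold change of 0.55 (SE 0.24), 1.47-fold, passed the unadjusted line (edgeR, adjusted p = 0.379). It no longer passed without c124, c130, fl126 or fl128, with total counts in place of TMM, or with a minimum mean of 50. Its relative Msi1 had 1 to 11 counts per mouse and was not tested.

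Elavl1 (ENSMUSG00000040028, chromosome 8, 4285382 to 4325413, minus strand), or HuR, was at 51.7, 39.5 and 39.8 CPM in WT and 29.0, 24.3 and 39.9 CPM in cD2KO. The groups overlapped because fl128 stood with c129 and c130. Its log2 fold change of -0.49 (SE 0.27) did not pass (edgeR, adjusted p = 0.501), although it passed the unadjusted line without fl128.

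Stau1 (ENSMUSG00000039536, chromosome 2, 166947549 to 166996299, minus strand), which binds double-stranded RNA, was at 53.0, 48.7 and 56.1 CPM in WT and 65.2, 54.4 and 88.9 CPM in cD2KO. The groups overlapped through fl126, and the log2 fold change of 0.40 (SE 0.23) did not pass (edgeR, adjusted p = 0.523) except without fl126. The mouse fl128 was highest for Rbpms, Rbpms2, Msi2 and Stau1, and it also had the highest sums of mural and of muscle fibre markers (23450 and 7330 CPM). The part of those cells in these 4 levels was not tested.

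Celf1 (ENSMUSG00000005506, chromosome 2, 90940382 to 91019497, plus strand), which controls splicing and decay in muscle and is known from myotonic dystrophy, was at 150, 119 and 114 CPM in WT and 195, 135 and 158 CPM in cD2KO. Its groups overlapped and its log2 fold change of 0.35 (SE 0.21) did not pass (edgeR, adjusted p = 0.545). Fxr1 (ENSMUSG00000027680, chromosome 3, 34019943 to 34070322, plus strand), a relative of the fragile X protein with forms made in muscle, was at 117, 131 and 159 CPM in WT and 163, 142 and 118 CPM in cD2KO. The 2 ranges were nearly the same, and the log2 fold change of 0.05 (SE 0.21, edgeR, adjusted p = 0.954) changed sign with total counts in place of TMM and without c124 or fl125.

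The 6 lists of related genes covered the partners and targets of these proteins, and of their 103 genes tested, out of 126 listed, 5 were higher and 12 lower in cD2KO, with a median log2 fold change of -0.08 (edgeR). These are 4.85% and 11.7% of the genes tested, beside 5.34% and 6.62% of all genes, and without c129 5 were lower. None passed an adjusted p of 0.1, and the lowest adjusted p was 0.124. Unadjusted, 4 were higher and 14 lower with DESeq2 and 4 higher and 11 lower with limma voom.

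Of the 13 paralogs of the 10 genes, 5 passed the expression minimum and 0 of them the test by edgeR, DESeq2 or limma voom at an unadjusted p under 0.05. Celf2 was the most abundant in CPM, at 418, 338 and 364 CPM in WT and 365, 269 and 211 CPM in cD2KO (log2 fold change -0.41, SE 0.22, edgeR, adjusted p = 0.507). Its groups overlapped through fl125, and without that mouse 2 of the 5 paralogs were lower. Celf3 and Celf6 had no count in any mouse, which at this depth allows up to 0.768 to 1.36 CPM by counting error alone.

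Deadenylation genes, the partners through which Zfp36 proteins act, held 2 lower and 0 higher of 20 tested, with a median log2 fold change of -0.08. Btg2, an adaptor of the CCR4-NOT deadenylase that is also on the dissociation list, was at 111, 317 and 170 CPM in WT and 76.1, 90.6 and 75.7 CPM in cD2KO. All cD2KO mice were below all WT mice, with c129 again the highest, and its log2 fold change of -1.30 (SE 0.33, edgeR, adjusted p = 0.132) passed the unadjusted line without any 1 mouse, at -0.77 without c129. Pabpc1, the main poly(A)-binding protein, had a log2 fold change of -0.49 (SE 0.22, edgeR, adjusted p = 0.395), which missed the line without c129, c130, fl126 or fl128.

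Decapping and decay genes held 2 higher and 0 lower of 21 tested, with a median of 0.05. Lsm4, of the LSM ring that binds mRNAs before decapping, had a log2 fold change of 0.44 (SE 0.19, edgeR, adjusted p = 0.392), which missed the line without c124, c129, fl126 or fl128, with total counts and with a minimum mean of 50. Of 19 tested regulators of translation and RNA granules, 0 passed at an unadjusted p under 0.05 with edgeR, DESeq2 or limma voom, and their median was 0.01. With total counts, with a minimum mean of 50, without c124 and without fl128, 1 was lower.

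Splicing regulators of muscle held 2 higher and 3 lower of 17 tested, with a median of -0.21 that was -0.06 without c124, -0.09 without c129 or fl126 and 0.02 without fl128. Rbm24, which drives muscle splicing, was at 42.5, 54.3 and 56.4 CPM in WT and 91.5, 59.5 and 75.4 CPM in cD2KO (log2 fold change 0.56, SE 0.23, edgeR, adjusted p = 0.356). Every cD2KO mouse was above every WT mouse, but the line was missed with total counts and without c124, fl125 or fl128. Rbm20, the regulator of titin splicing, stood at 1.85 to 4.50 CPM in WT and 6.91 to 9.51 CPM in cD2KO (1.31, SE 0.57, on the log2 scale, edgeR, adjusted p = 0.387), and missed the line without c124, c129, fl125 or fl126. Among the lower genes, Ptbp3 was at 75.3, 113 and 112 CPM in WT and 50.3, 69.8 and 58.7 CPM in cD2KO (log2 fold change -0.74, SE 0.23, edgeR, adjusted p = 0.18), and it passed without any 1 mouse. Hnrnph1 had a log2 fold change of -0.72 (SE 0.25, edgeR, adjusted p = 0.258) and missed the line without fl126 or fl128. Mbnl1, the splicing factor sequestered in myotonic dystrophy, had one of -0.47 (SE 0.20, edgeR, adjusted p = 0.377) and missed it with no expression minimum and without c129, c130, fl125 or fl126.

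**Figure D4:**
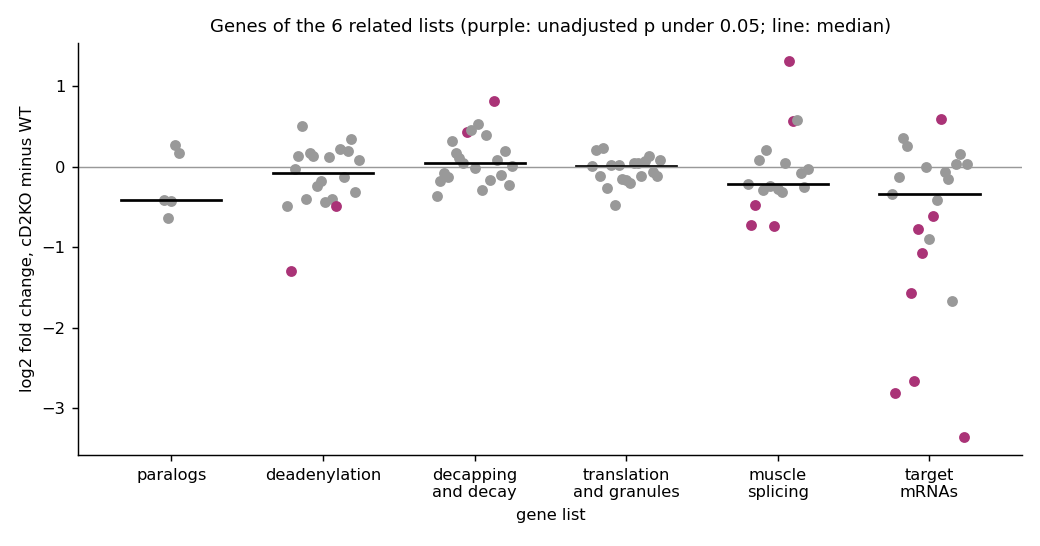
Log2 fold change, cD2KO minus WT (vertical axis), of each tested gene in the 6 related lists (horizontal axis); purple points had an unadjusted p under 0.05 and black lines are the list medians. The target mRNAs had the lowest called values, down to -3.35 for Tnf, and the 19 genes of translation and granules lay between -0.48 and 0.24 with none called.

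Of the mRNAs known as targets of these proteins, 1 was higher and 7 lower of 21 tested, with a median log2 fold change of -0.34. The lower ones were Ccl2, Tnf, Dusp1, Cxcl1, Cxcl2, Fos and Junb, which are cytokine, chemokine and immediate early genes, and Fos, Junb and Dusp1 are also on the dissociation list. Without c129, 2 of the 21 were lower with a median of -0.21, and 11 were lower without c124 and 4 without fl128. Tnf, with its 8 AU-rich cores, was at 7.17, 38.0 and 6.58 CPM in WT and 0, 3.08 and 1.57 CPM in cD2KO (log2 fold change -3.35, SE 0.95, edgeR, adjusted p = 0.182). The cD2KO mice lay below the WT mice, and Tnf passed the unadjusted line without any 1 mouse, with log2 fold changes from -4.20 without fl126 to -2.03 without c129. Cxcl2 was at 14.3, 79.7 and 22.5 CPM in WT and 1.36, 9.92 and 6.28 CPM in cD2KO (log2 fold change -2.67, SE 0.84, edgeR, adjusted p = 0.287), and missed the line without fl128. Without c129 it was -1.58. The groups of Cxcl2 did not overlap either, and c129 was the highest.

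Ccl2, whose 3′ end held no core, had a log2 fold change of -2.82 (SE 0.73, edgeR, adjusted p = 0.124), missed the line with limma voom, and was below the expression minimum without c129. Cxcl1 (-1.57, SE 0.51, edgeR, adjusted p = 0.228) and Dusp1 (-0.78, SE 0.26, edgeR, adjusted p = 0.227) missed the line without c129, at -0.72 and -0.45. Fos (-1.07, SE 0.43, edgeR, adjusted p = 0.388) missed it without c129, fl125 or fl128, and Junb (-0.62, SE 0.27, edgeR, adjusted p = 0.396) without c129, c130, fl125 or fl128. For these mRNAs c129 was the highest mouse, as it was for Zfp36, the protein of which is known to shorten the life of several of them. Leukocytes are a known source of Tnf, Ccl2 and Cxcl2, and the part of leukocytes and dissociation stress, whose summed markers were highest in c129, was not tested.

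Myod1, the myogenic target of Zfp36 and Stau1, was at 21.5, 27.7 and 31.8 CPM in WT and 33.5, 21.2 and 22.6 CPM in cD2KO. The groups overlapped, and its log2 fold change of -0.07 (SE 0.30, edgeR, adjusted p = 0.959) changed sign without c130, fl126 or fl128. Myf5, another myogenic regulator, was at 29.2, 35.8 and 28.7 CPM in WT and 59.3, 47.2 and 34.5 CPM in cD2KO. It was the only listed target that was higher (log2 fold change 0.59, SE 0.26, edgeR, adjusted p = 0.399). Its groups overlapped through fl128, and it missed the line with DESeq2, with limma voom, with total counts, with a minimum mean of 50 and without c124, c130, fl125 or fl126.

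**Figure D5:**
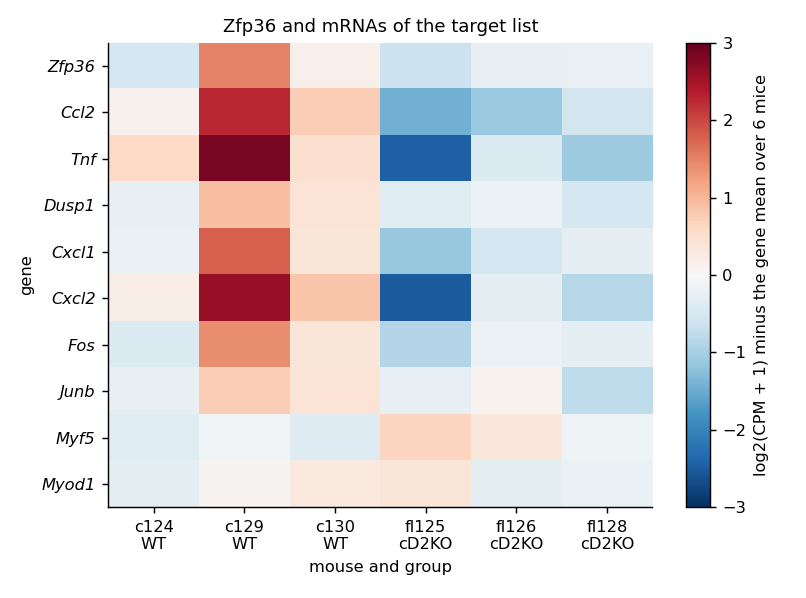
Colour map of Zfp36, the 7 lower target mRNAs, Myf5 and Myod1 (rows) in each mouse (columns); colour is log2(CPM + 1) minus the mean of the gene over the 6 mice. The WT mouse c129 is highest for Zfp36 (432 CPM) and for the 7 lower targets, while Myod1 shows no such column.

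The genes whose log2 CPM was most like that of Zfp36 over the 6 mice were Agps, Kcns2, Etfdh, Ubl3 and Rassf1, with Pearson's r of 0.9890 to 0.9790 and Spearman's rho of 0.829 to 0.943. Without c129 and fl125, the farthest from the median, r was 0.910, 0.926, 0.805, 0.806 and 0.979. The high level in c129 is shared by these points, and r is given as a description.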

How the data were processed

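RNA of sorted qMuSCs from 3 WT and 3 cD2KO mice was sequenced. The authors aligned the reads to mm10 with STAR and deposited the raw, whole-number count of each gene; the submitters' processing notes name STAR 2.6.0a, HTSeq 0.9.1 and bcl2fastq. The annotation, use of strand and handling of duplicates are not given in the sources used here. Symbols and coordinates came from GENCODE M21, which held 30934 of 31053 identifiers, and promoters from RefSeq.

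The 11633 genes whose DESeq2-normalized counts averaged over 10 entered edgeR 4.0.16 in R 4.3.3, in a two-sided quasi-likelihood fit of the 6 mice with TMM factors, robust estimation and no covariate. Benjamini-Hochberg adjustment covered all of these genes. Log2 CPM for likeness had a prior count of 2 and a minimum mean of 10 CPM. Identity of coding sequences came from a global alignment in Biopython 1.88. Single sums were compared with exact permutation tests in scipy 1.17.1. The fit had been tested on simulated data.

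Named genes were the 10, Dio2, up to 5 called genes in each direction from each of 6 related lists, and the 5 most like Rbpms2 and Zfp36; Myod1, Fos, Junb, Celf2, Celf3, Celf6 and Msi1 and the markers were named after their values were seen. A result for 1 gene of these lists is not reported here. The genes and lists were chosen with earlier results of these data known. Alternatives were DESeq2 1.42.0, limma 3.58.1 voom, 3 other scalings, 3 other minimums, an adjusted p of 0.1 and leaving out each mouse. Marker counts without each mouse were added after seeing the data. Floors cover counting error only. The SE of a log2 fold change was its absolute value divided by the square root of F from edgeR's quasi-likelihood test. It includes variation between mice.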

Additional observations from a re-analysis of the deposited data

How the results depend on the processing

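Calls rested on an unadjusted p, and at an adjusted p under 0.1 the counts over all genes fell from 621 higher and 770 lower to 33 and 57, those of the 9 genes chosen by role to 0 and 0, and those of the related lists to 0 and 0. With no expression minimum 939 genes were higher, and with a minimum mean of 50, 505 were lower. Total counts without factors gave 445 higher and 945 lower. Leaving out 1 mouse gave 402 to 933 higher, the most without fl125 and the fewest without fl128, and 399 to 874 lower, the fewest without c129. Among the 9 genes, the count of higher genes was 0 with total counts and with a minimum of 50, and 0 to 1 without 1 mouse (0 without c124, c130 or fl128). The count of lower genes was 2 with DESeq2 and 0 to 2 without 1 mouse (2 without c124, 0 without c130 or fl126). In the related lists 2 genes were higher with total counts and 2 with a minimum of 50. Without 1 mouse 2 to 4 were higher (2 without c124, fl125 or fl126, 3 without c129 or fl128) and 5 to 18 lower (5 without c129). The log2 fold change of Fxr1 turned to -0.005 with total counts, -0.045 without c124 and -0.023 without fl125 (-0.045 to 0.209 without 1 mouse), and that of Myod1 to 0.089 without c130, 0.052 without fl126 and 0.014 without fl128 (-0.257 to 0.089). The cause of these shifts was not tested, apart from the fewer genes that a higher minimum leaves. Of the fold changes of named genes, 330 stayed on their side of the threshold with their direction, 74 lost the call, 5 gained it and 6 changed sign. No paired analysis was possible because the labels give no replicate numbers that tie WT to cD2KO mice. Depth limits genes near 1 CPM.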

Other observations

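Some of the 10 genes share exonic positions with a gene on the opposite strand, and where strand was not used their reads are uncertain there. Gm44710, opposite Zfp36, had 0 counts in every mouse. Gm26669, opposite Zfp36l1, had 8 counts in c130 and 0 in the other 5 mice. Ccl25, opposite Elavl1, had 3 to 16 counts, and Dnajc19, opposite Fxr1, was at 52.1 to 71.0 CPM. Within the Zfp36 family, the coding sequences of Zfp36l1 and Zfp36l2 were 76.4% identical where aligned, with a longest shared run of 32 bases in the mRNAs. The ratio of Rbpms to Rbpms2 was 0.443, 0.526 and 0.342 in WT and 0.294, 0.262 and 0.232 in cD2KO. It carries the rise for which Rbpms2 was chosen and is a description.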
